A study of Caenorhabditis elegans with 5 samples.

Results

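The major sperm protein (msp), small sperm-specific protein (ssp) and nspd families of C. elegans were examined in mRNA-seq of whole young adults. Members were chosen by name alone: gene models whose WormBase symbol, matched by sequence name, is msp-, ssp- or nspd- followed by a number. This gave 52 models of the 20911 in the table, with 30 in the msp family, 12 in the ssp family and 10 in the nspd family, 1 model per gene.

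Major sperm proteins are small cytoskeletal proteins that polymerise into filaments and drive the crawling of nematode sperm. They are also released from sperm as a signal that triggers oocyte maturation and contraction of the gonadal sheath. Genes of the ssp family encode single-domain relatives of MSP, and nspd genes encode a family of very short nematode-specific peptides. Hermaphrodites make sperm late in larval life and then switch to oocytes, so that sperm transcripts in adults come from a past or closing phase of the germline.

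Poly(A)-selected RNA from synchronized animals kept at 19 °C on OP50 bacteria was sequenced in 5 libraries, 1 per genotype. These were WT (N2), the set-32(ok1457) single mutant, the double mutant met-2(n4256);set-25(ok5021), written met-2 set-25 from here on, a triple mutant that adds set-32(ok1457) to the alleles of the double mutant, and hrde-1 (tm-1200). MET-2, SET-25 and SET-32 belong to the enzymes associated with histone H3 lysine 9 methylation, and HRDE-1 is the germline Argonaute of nuclear RNAi. The comparisons ask what the loss of each does to messenger RNA, and all 4 mutants were set against the same WT library. Levels are RPKM, reads per kilobase of gene model scaled to library depth, as the authors deposited them.

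With a single library per genotype there was no replicate check and no test, and genotype and library cannot be told apart. Intervals (95%, Clopper-Pearson, from approximate read numbers) cover counting error only, since PCR reads without molecular identifiers are not independent molecules. The deposited values imply 1.84 to 2.92 M reads per library. The set-32 mRNA itself was at 12.5 RPKM in WT, 8.15 in set-32, 12.3 in met-2 set-25, 5.65 in triple mutants and 14.5 in hrde-1, and each of met-2, set-25 and hrde-1 was likewise lowest in a library carrying its own mutation. Reads remained in all of these, so that this is a weak check of the labels.

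All 30 msp models were single-exon genes, and 28 of them had a coding length of 384 bases in WBcel235, apart from msp-32 (360 bases) and msp-74 (234 bases). Of the ssp models, 9 of 12 had 1 exon, and their lengths ran from 324 to 339 bases. The nspd models were single-exon genes of 213 to 222 bases. By position, 13 msp genes lay on chromosome II between 4785898 and 5810330, 8 on IV between 5055631 and 5316906, and 9 on IV between 9689015 and 10143740. The ssp and nspd genes were more scattered, with ssp genes on I, IV and V and nspd genes on I, II, III and IV.

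The deposited table marks genes by germline expression class, and 39 of the 52 members carried the sperm mark (26 msp, 9 ssp and 4 nspd). The remaining 13 carried no class. 0 belonged to the 2 target lists of nuclear RNAi that the table also marks. Because the authors divided a read with several perfect alignments evenly among them, near-identical copies share reads, and the family sum is the firmer quantity. Every member with reads nevertheless had values of its own, not shared with any other model. The one member without reads was nspd-8, at 0 in all 5 libraries, where 3 reads would stand for 4.76 to 7.54 RPKM.

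The set-32 library held by far the most sperm family mRNA. The summed msp level was 1234 RPKM in WT, 2903 in set-32, 1645 in met-2 set-25, 1447 in triple mutants and 1104 in hrde-1. Thus set-32 stood at 2.35 times WT (2.19 to 2.52), the double mutant at 1.33 (1.23 to 1.44), the triple mutant at 1.17 (1.09 to 1.26) and hrde-1 at 0.895 (0.816 to 0.980). The order of the libraries was set-32, met-2 set-25, triple mutant, WT and hrde-1, and each neighbouring pair differed beyond counting error. Since these are whole animals, fewer sperm-line cells and less RNA per cell cannot be told apart in any of these values.

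The ssp sum followed the same order on a smaller scale. It was 133.8 RPKM in WT, 324.5 in set-32, 198.3 in met-2 set-25, 166.2 in triple mutants and 132.1 in hrde-1. Its ratio to WT was 2.42 (1.92 to 3.07) in set-32 and 1.48 (1.14 to 1.92) in the double mutant. For the triple mutant (1.24, 0.967 to 1.60) and hrde-1 (0.987, 0.730 to 1.33) a difference from WT was not detectable at this depth.

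The nspd sum was also highest in set-32 but sat differently in the other mutants. It was 467.8 RPKM in WT, 872.1 in set-32, 404.7 in met-2 set-25, 391.7 in triple mutants and 253.9 in hrde-1. Relative to WT, set-32 was at 1.86 (1.59 to 2.19) and hrde-1 at 0.543 (0.426 to 0.687). The double mutant (0.865, 0.711 to 1.05) and the triple mutant (0.837, 0.699 to 1.00) could not be separated from WT.

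**Figure D1:**
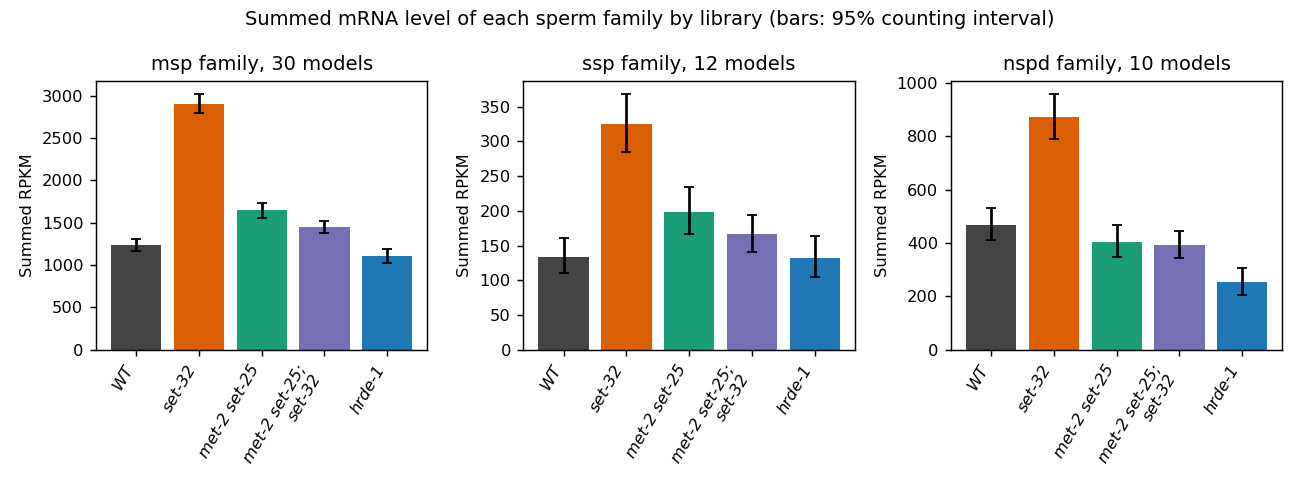
Summed RPKM of the msp, ssp and nspd families in each of the 5 libraries, 1 library per genotype; error bars are 95% counting intervals. In every panel the set-32 bar is the tallest, 2903 RPKM for msp against 1234 in WT, and the nspd bar of hrde-1, at 253.9 RPKM, is the lowest of its panel.

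Together the 52 members made up 0.234% of all RPKM in WT, 0.515% in set-32, 0.287% in met-2 set-25, 0.254% in triple mutants and 0.197% in hrde-1. The table's other sperm-class genes were also higher in set-32, by less, and lower in hrde-1. Summed over 747 models outside the families, they stood at 3260 RPKM in WT and 5053 in set-32, a ratio of 1.55 (1.50 to 1.60), below the intervals of the msp and ssp ratios and touching that of the nspd ratio. In hrde-1 they were at 2456 RPKM, a ratio of 0.753 (0.725 to 0.782), below the msp ratio and above the nspd ratio. In the double and triple mutants they were at 1.11 (1.07 to 1.15) and 1.07 (1.04 to 1.10) of WT, on the side of the msp and ssp sums.

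Loss of set-32 was also present in the triple mutant, yet the levels there were far from those of the set-32 library. The msp sum in the triple mutant was 0.498 of that in set-32 (0.468 to 0.531), the ssp sum 0.512 (0.416 to 0.629) and the nspd sum 0.449 (0.382 to 0.527). Relative to met-2 set-25, which carries the same alleles apart from set-32(ok1457), the triple mutant was at 0.879 for msp (0.817 to 0.947), 0.838 for ssp (0.663 to 1.06) and 0.968 for nspd (0.796 to 1.18). So the 2 libraries that share set-32(ok1457) differed about as much as set-32 and WT did, while the 2 libraries with met-2(n4256);set-25(ok5021) lay close together.

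The increase in set-32 was found in every member with reads. All 51 were above WT, against 48.3% of all measured models (those averaging 1 RPKM or more, 13613 in all), and 50 of 51 had their highest value in set-32, against 20.7% of all models. The exception was ssp-37, at 9.28 RPKM in WT, 15.2 in set-32, 16.3 in met-2 set-25, 15.5 in triple mutants and 8.71 in hrde-1. Copies that share reads cannot count as separate observations here.

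By size, 37 of the 49 members that could be tested (at least 5 RPKM in the higher library) were at least 2-fold higher in set-32 on the scale of log2((mutant + 1)/(WT + 1)), and 0 were lower. Over all models 4.19% were higher and 2.14% lower by the same rule. An interval of the ratio above 1 as well was found for 33 members, against 2.89% of all models, and one below 1 for 0 members, against 1.26%. These were 27 msp genes, together with ssp-9, ssp-11, ssp-35, nspd-3, nspd-6 and nspd-7. The member just outside the size rule was nspd-4 at 0.96 on the log2 scale, and the one just inside was msp-57 at 1.01, so that the count divides a continuous range.

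The msp genes were close to uniform in this response, though shared reads draw the values of near-identical copies together. The 5 with the highest mean level illustrate the response. msp-36 had 47.2 RPKM in WT, 138.4 in set-32, 82.1 in met-2 set-25, 74.0 in triple mutants and 56.9 in hrde-1, the highest set-32 value of the family. msp-76 had 63.1, 129.9, 81.8, 63.9 and 50.4 RPKM in the same order of libraries, and msp-57 had 61.0, 124.3, 73.7, 66.6 and 49.03 RPKM. In msp-36, msp-76 and msp-57 set-32 was the highest library and met-2 set-25 the next. msp-19 had 52.3, 132.4, 68.9, 62.9 and 42.6 RPKM. msp-78 had 56.8, 121.5, 69.4, 70.5 and 37.7 RPKM, with the triple mutant next after set-32. The lowest library was WT for msp-36 and hrde-1 for the other genes named here.

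Ratios to WT in set-32 ran from 1.65 (1.01 to 2.73) for msp-142 to 4.76 (1.52 to 20.3) for msp-63, with a median of 2.30. The interval of all 30 msp genes held the ratio of the family sum, so single copies could not be told from the family as a whole at this depth. msp-63 and msp-142 are neighbours on II, transcribed away from each other with 478 bases between them. msp-63 was one of the lowest copies, at 4.04 RPKM in WT, 19.2 in set-32, 13.5 in met-2 set-25, 8.46 in triple mutants and 4.93 in hrde-1. msp-142 had 31.3, 51.7, 34.2, 26.8 and 24.2 RPKM. msp-3 had the next largest msp ratio, 3.41 (2.10 to 5.74), from 24.1 RPKM in WT to 82.4 in set-32, with 39.7, 37.7 and 32.9 RPKM in the double mutant, the triple mutant and hrde-1.

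**Figure D2:**
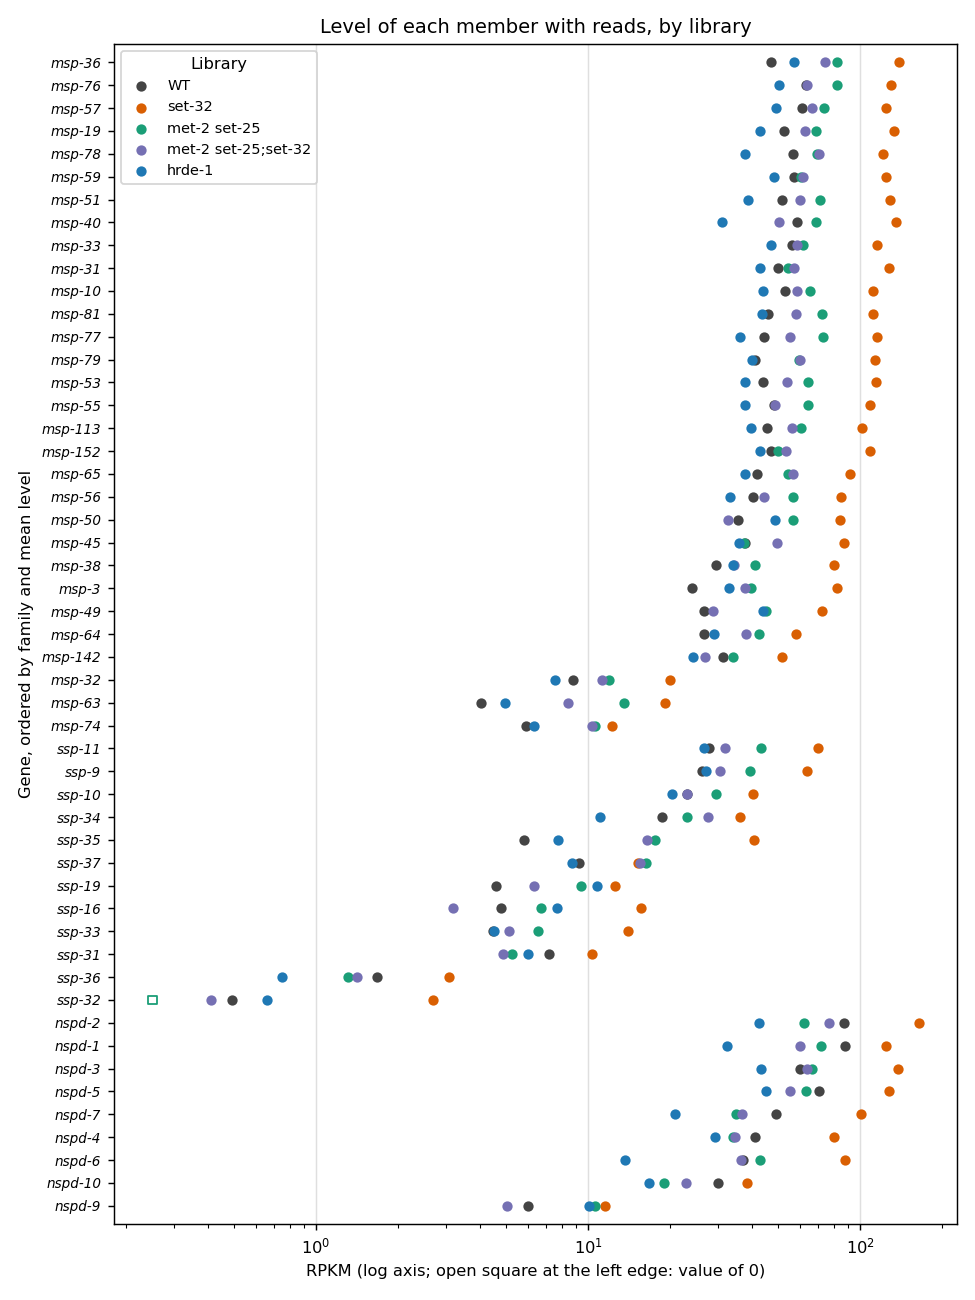
RPKM (log axis) of each of the 51 members with reads, 1 point per library, ordered by family and mean level; the open square stands for a value of 0. The set-32 point is the rightmost for 50 of 51 genes, and msp-32, msp-63 and msp-74 lie well below the other msp genes.

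Among msp genes the ratios in set-32 were alike at each position. Near-identical copies at different positions share reads, so these groups are not independent and part of the likeness may be built in. The 13 msp genes on II had a sum of 412.1 RPKM in WT and 973.4 in set-32, a ratio of 2.36 (2.09 to 2.67). The 8 in the left group on IV had a ratio of 2.30 (2.04 to 2.61) and the 9 in the right group a ratio of 2.39 (2.12 to 2.70). In hrde-1 the ratios of these groups were 0.964 (0.824 to 1.13), 0.825 (0.698 to 0.974) and 0.892 (0.761 to 1.04), with overlapping intervals. The smaller ssp and nspd groups spread more widely in set-32. The ssp groups ran from 1.88 (1.22 to 2.94) for the right part of IV to 5.33 (2.48 to 13.1) for the 2 genes on V, whose interval lay above the ratio of the ssp sum. The nspd groups ran from 1.38 (0.979 to 1.96) on I to 2.32 (1.65 to 3.30) in the left part of IV, with overlapping intervals.

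All 3 families meet in a stretch of IV from msp-81 (9836034 to 9836417) to ssp-10 (9850702 to 9851031), which also holds msp-10, msp-56 and nspd-2. In set-32 the ratios of these neighbours were 2.44 (1.69 to 3.58) for msp-81, 2.11 (1.49 to 3.04) for msp-10, 2.09 (1.40 to 3.18) for msp-56, 1.89 (1.298 to 2.79) for nspd-2 and 1.75 (0.950 to 3.31) for ssp-10. In hrde-1 the same genes had 0.954 (0.581 to 1.55), 0.828 (0.511 to 1.32), 0.819 (0.468 to 1.41), 0.491 (0.262 to 0.876) and 0.881 (0.392 to 1.91). Only nspd-2 among these 5 neighbours had an interval below 1 in hrde-1, although its interval overlaps those of the others. This stretch was picked after its values were seen.

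Among the ssp genes, ssp-11 and ssp-9 were the most abundant. ssp-11 had 27.8 RPKM in WT, 70.2 in set-32, 43.3 in met-2 set-25, 31.7 in triple mutants and 26.7 in hrde-1. ssp-9 had 26.2, 63.6, 39.2, 30.5 and 27.1 RPKM. Their ratios in set-32 were 2.53 (1.51 to 4.34) and 2.43 (1.42 to 4.26), close to that of the msp family. ssp-10 was at 22.98 RPKM in both WT and the triple mutant and at 40.3 in set-32, 29.6 in the double mutant and 20.3 in hrde-1. ssp-34 had 18.6, 36.3, 23.02, 27.7 and 11.1 RPKM, and neither it nor ssp-10 reached an interval clear of 1 in set-32.

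The largest ratio of any member in set-32 belonged to an ssp gene. ssp-35 on V (12263500 to 12263823) had 5.79 RPKM in WT, 40.6 in set-32, 17.6 in met-2 set-25, 16.5 in triple mutants and 7.77 in hrde-1. Its ratio in set-32, 7.02 (2.61 to 24.6), was the only one of the 51 whose interval did not hold the ratio of its family sum. Counting error alone would make a few of 51 such intervals miss, and ssp-35 rested on about 4.61 reads in WT. It was also the only ssp gene past the 2-fold rule in the double mutant (3.05, 0.972 to 11.7) and the only member past it in the triple mutant (2.84, 0.962 to 10.5), in each case with an interval that includes 1. It was lowest in WT, but its ratio in hrde-1, 1.34 (0.288 to 6.26), had an interval that includes 1. The other ssp gene on V, ssp-33, had 4.46, 14.1, 6.53, 5.12 and 4.49 RPKM.

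The least abundant ssp genes were ssp-32 and ssp-36. ssp-32 had 0.49 RPKM in WT, 2.69 in set-32, 0.41 in the triple mutant, 0.66 in hrde-1 and 0 in met-2 set-25, where 3 reads would stand for 4.42 RPKM. ssp-36 had 1.68, 3.07, 1.31, 1.41 and 0.75 RPKM. Such values rest on a handful of reads, and no difference between libraries was detectable in either gene.

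The 3 most abundant members per base in WT were nspd-1, nspd-2 and nspd-5, although the median nspd gene, at 44.9 RPKM, was level with the median msp gene, at 44.8. nspd-2 had 86.8 RPKM in WT, 164.4 in set-32, 62.3 in met-2 set-25, 76.9 in triple mutants and 42.6 in hrde-1. nspd-1 had 87.7, 124.6, 71.6, 60.1 and 32.4 RPKM. In both, set-32 was highest, WT was next and hrde-1 was lowest. nspd-3 had 59.99, 137.6, 66.2, 63.7 and 43.3 RPKM, nspd-5 had 70.6, 127.2, 63.3, 54.9 and 45.02 RPKM, and nspd-7 had 48.9, 100.6, 34.9, 36.9 and 20.8 RPKM.

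Ratios in set-32 ran from 1.28 (0.624 to 2.64) for nspd-10 to 2.37 (1.36 to 4.28) for nspd-6. Of the 9 nspd genes with reads, 6 had an interval above 1, a rule whose share over all models was not worked out. nspd-9 on III was the outlying low copy, at 6.02, 11.5, 10.6, 5.03 and 10.1 RPKM, and the only nspd gene that was above WT in hrde-1. nspd-3 and nspd-6 lie 2469 bases apart on IV and had similar ratios in set-32, 2.29 (1.48 to 3.62) and 2.37.

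In hrde-1 the nspd sum stood lower against WT than the msp sum did. The proportion of nspd to msp was below that of WT in the other mutants as well. Of the 51 members, 36 were below WT and 15 above, against 50.2% of all models below. By the 2-fold rule 4 of 47 members were lower and 1 higher, beside 3.55% and 2.68% of all models. The 4 lower members were nspd-1, nspd-2, nspd-6 and nspd-7, and each also had an interval below 1 (2.12% of all models, while 1.52% had a 2-fold increase and an interval above 1). The higher one was ssp-19, at 4.60 RPKM in WT, 12.6 in set-32, 9.42 in met-2 set-25, 6.32 in triple mutants and 10.8 in hrde-1, with an interval that includes 1 (2.35, 0.566 to 11.7).

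As a family the nspd genes fell furthest in hrde-1. The msp sum, at 0.895 (0.816 to 0.980), and the sperm class outside the families, at 0.753 (0.725 to 0.782), were also below WT. nspd-1 had a ratio of 0.370 (0.182 to 0.6998) in hrde-1, nspd-6 one of 0.370 (0.115 to 0.989), from 37.0 to 13.7 RPKM, and nspd-7 one of 0.425 (0.168 to 0.964). The msp genes lay nearer to WT, with 22 of 30 below it and a median ratio of 0.857. Their lowest ratio was that of msp-40, 0.530 (0.308 to 0.884), and their highest that of msp-49, 1.65 (0.946 to 2.91). These 2 genes were the only members in hrde-1 whose interval missed the ratio of their family sum. msp-40 had 58.4, 134.9, 68.96, 50.3 and 31.0 RPKM in the 5 libraries, and msp-49 had 26.6, 72.1, 44.9, 28.7 and 44.03 RPKM. The latter was thus lowest in WT and the triple mutant and not in hrde-1.

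**Figure D3:**
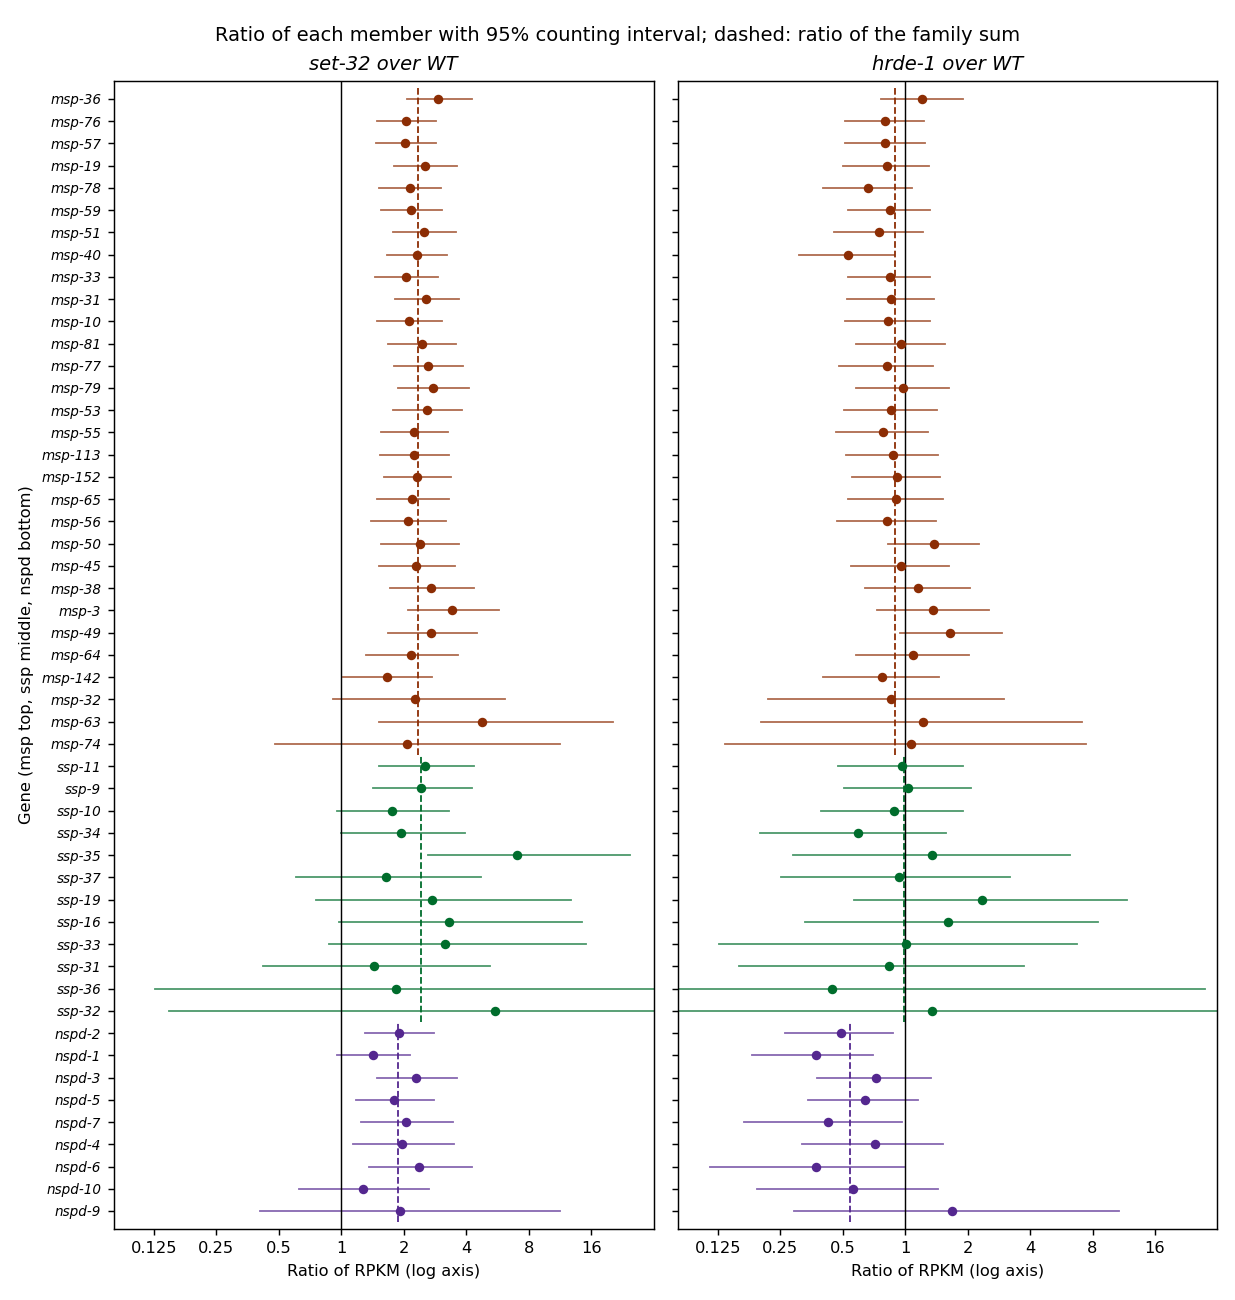
Ratio of RPKM to WT (log axis) of each of the 51 members with reads in set-32 and in hrde-1, with the 95% counting interval (lines end at the plot edge where it is wider); dashed lines mark the ratio of each family sum. In set-32 all points lie to the right of 1, and in hrde-1 the nspd points other than nspd-9 lie to the left of 1 while the msp points scatter around 0.895.

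The double and triple mutants changed single members little. In met-2 set-25, 41 members were above WT and 10 below, against 57.2% of all models above, and 2 of 49 were at least 2-fold higher (msp-63 and ssp-35), against 3.30% of all models. Neither had an interval above 1 (1.89% of all models). In the triple mutant 35 were above, 15 below and 1 equal, against 49.2% above, and 1 of 48 was at least 2-fold higher (ssp-35), against 3.76%, and it had no interval above 1 either (2.47%). The count of members 2-fold lower was 0 in both, beside 1.60% and 1.70% of all models. In the double mutant the interval excluded 1 for 3 members, all of them msp genes and higher: msp-36 at 1.74 (1.17 to 2.61), msp-77 at 1.65 (1.09 to 2.51) and msp-81 at 1.59 (1.05 to 2.41). In the triple mutant this held for msp-36 alone, at 1.57 (1.08 to 2.31). The share of all models with an interval clear of 1, whatever the size, was not worked out. Near-identical msp copies share reads, and each of these intervals held the ratio of the msp sum, so these genes could not be told from their family.

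The families were also set against each other within each library. The summed nspd level was 0.379 of the msp level in WT (0.329 to 0.435), 0.300 in set-32 (0.270 to 0.333), 0.246 in met-2 set-25 (0.210 to 0.287), 0.271 in the triple mutant (0.236 to 0.310) and 0.230 in hrde-1 (0.185 to 0.283). Relative to WT the proportion was 0.793 (0.666 to 0.946) in set-32, 0.649 (0.525 to 0.803) in the double mutant, 0.717 (0.589 to 0.873) in the triple mutant and 0.611 (0.471 to 0.787) in hrde-1. All 4 of these share the WT library, which had the highest proportion. Set against the median of the other 4 libraries instead, set-32 was at 1.16, so that its direction turns, and the double mutant, the triple mutant and hrde-1 were at 0.862, 0.991 and 0.805.

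The ssp sum kept a steady proportion to the msp sum. It was 0.108 of it in WT, 0.112 in set-32, 0.121 in met-2 set-25, 0.115 in triple mutants and 0.1196 in hrde-1. Relative to WT this was 1.03 (0.810 to 1.32), 1.12 (0.851 to 1.47), 1.06 (0.815 to 1.38) and 1.11 (0.806 to 1.51), so that a difference was not detectable within intervals that run from 0.806 to 1.51.

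**Figure D4:**
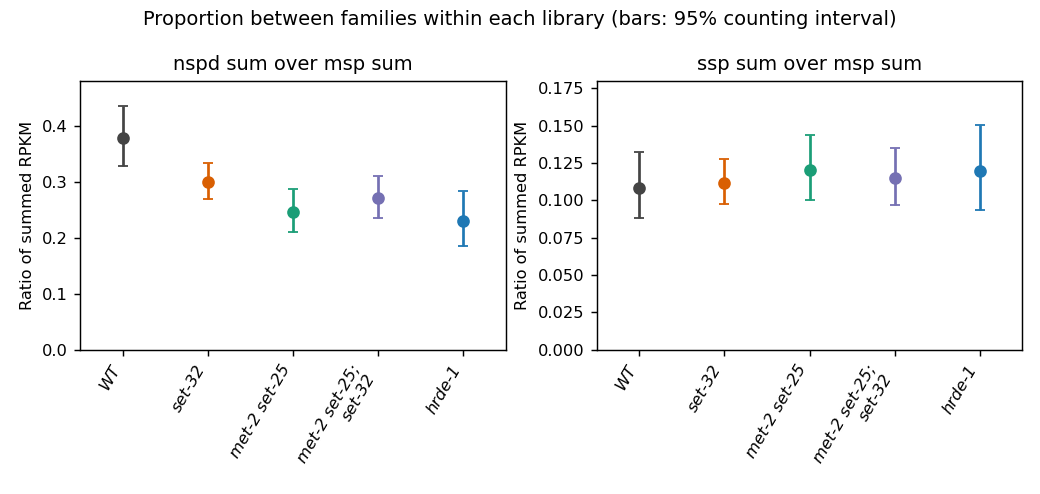
Summed nspd and summed ssp RPKM as a proportion of summed msp RPKM within each library, with 95% counting intervals. The nspd proportion is highest in WT (0.379) and lowest in hrde-1 (0.230), and the ssp proportion stays between 0.108 and 0.121.

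Other sperm genes were followed by lists of names. Over the 50 members averaging 1 RPKM or more the median log2 ratio was 1.14 in set-32, 0.39 in met-2 set-25, 0.17 in triple mutants and -0.22 in hrde-1, beside -0.02, 0.06, -0.00 and -0.00 over all 13613 measured models. The 509 measured sperm-class models outside the families had 0.40, 0.13, 0.07 and -0.46. Most of those are low genes, whose ratios the added 1 RPKM pulls towards 0. Above an average of 10 RPKM, 74 such models had medians of 0.72, 0.05, 0.01 and -0.33, and the 43 members at that level had 1.15, 0.37, 0.18 and -0.24. In set-32, 16 of the 74 were at least 2-fold higher and 0 lower, compared with 34 and 0 of the 43 members. In hrde-1, 13 of the 74 were at least 2-fold lower and 2 higher, compared with 4 and 0 of the 43 members. The shares of all models at this level were not worked out. With 5 RPKM or more in the higher library, 4.19% of all models were higher in set-32 and 3.55% lower in hrde-1.

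Most genes for other MSP-domain proteins and sperm structural proteins were above WT in set-32, but few passed the 2-fold rule. This list holds the msd genes for small MSP-domain proteins, the smz genes for sperm PDZ-domain proteins, the sss genes, the spch genes for sperm nuclear basic proteins and htas-1, a sperm histone H2A. All 12 were measured, the median log2 ratio was 0.71, and 11 lay above 0, against 48.3% of all models. Of the 12, 2 were at least 2-fold higher, against 4.19% of all models. These were msd-3, at 21.6 RPKM in WT, 48.5 in set-32, 24.2 in met-2 set-25, 19.6 in triple mutants and 20.2 in hrde-1, and spch-2, at 13.6, 30.4, 21.2, 26.2 and 9.52 RPKM. The ratios were 2.24 (1.23 to 4.23) and 2.24 (1.29 to 4.02).

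spch-1 and spch-3 had 1.81 (1.20 to 2.77) and 1.82 (1.19 to 2.82) in the same mutant. In hrde-1 the median of the list was -0.61, 10 of its 12 genes lay below 0, against 50.2% of all models, and 2 were at least 2-fold lower, against 3.55%. These were htas-1 and sss-2, named here because they make up that count. htas-1 had 10.4, 9.31, 2.21, 3.95 and 1.27 RPKM, and was lower in the double and triple mutants too. sss-2 had 6.02, 8.63, 14.1, 9.68 and 1.86 RPKM and was the 1 gene of 12 that was 2-fold higher in met-2 set-25, against 3.30% of all models. Its ratio in hrde-1, 0.309 (0.0517 to 1.18), had an interval that includes 1. In the double and triple mutants the list medians were 0.06 and 0.02.

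Genes for the fibrous body, the organelle in which spermatocytes store MSP, and for MSP assembly were less uniform. Of 12 found, 10 were measured. The median was 0.43 in set-32, 0.57 in met-2 set-25, 0.41 in triple mutants and 0.08 in hrde-1. In set-32, 6 lay above 0 and 4 below, near the 48.3% of all models above WT. gsp-3, 1 of a pair of sperm-specific type 1 protein phosphatases, had 8.08 RPKM in WT, 17.7 in set-32, 12.2 in met-2 set-25, 11.5 in triple mutants and 8.99 in hrde-1, and its partner gsp-4 had 9.84, 18.8, 10.7, 12.9 and 7.68 RPKM. Their ratios in set-32 were 2.19 (1.22 to 4.08) and 1.91 (1.11 to 3.38).

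spe-18, needed to localise MSP to fibrous bodies, had 4.76, 10.4, 10.3, 13.1 and 7.74 RPKM, with a ratio of 2.19 (1.07 to 4.73) in set-32. It was the gene of the list past 2-fold in the triple mutant, 1 of 7 tested, against 3.76% of all models. spe-5 had 3.85, 7.22, 9.01, 7.34 and 8.84 RPKM. It was the one past 2-fold in the double mutant (1 of 7 tested, against 3.30% of all models) and in hrde-1 (1 of 6, against 2.68%). Both genes were thus lowest in WT, unlike the nspd genes. The most abundant gene of the list went the other way. wee-1.3, a Myt1-type kinase that also acts in oocytes and is named here after its values were seen, had 86.6, 59.7, 100.9, 81.8 and 115.9 RPKM, with ratios of 0.689 (0.590 to 0.804) in set-32 and 1.34 (1.17 to 1.53) in hrde-1.

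Genes for sperm activation and fertilisation were mostly at the limit of detection. Of 19 found, 6 were measured, with medians of 0.00, -0.07, -0.18 and -0.34 in set-32, the double mutant, the triple mutant and hrde-1. Only 2 of the 6 reached 5 RPKM for the 2-fold rule in set-32, and neither passed it. spe-41, a sperm calcium channel needed at fertilisation, had 3.42 RPKM in WT, 1.02 in set-32, 2.91 in met-2 set-25, 2.72 in triple mutants and 9.58 in hrde-1, a course opposite to that of the families in both mutants. WT and set-32 were both under the minimum for this gene. Its ratio was 0.298 (0.0972 to 0.768) in set-32 and 2.80 (1.64 to 4.92) in hrde-1, where it was the 1 gene of this list past 2-fold. There 3 genes of the list could be tested, and 2.68% of all models were 2-fold higher. spe-8, a tyrosine kinase of the activation pathway, had 0.81, 2.06, 1.89, 2.25 and 0.72 RPKM. spe-11, a paternal factor needed by the embryo, had 7.66, 12.3, 4.75, 8.28 and 4.23 RPKM, and spe-46 had 4.96, 3.17, 3.87, 4.49 and 2.22 RPKM. The intervals of the last 3 in set-32 include 1.

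The regulators of spermatogenesis showed no shift like that of the families. All 18 were measured, none passed 2-fold in any mutant at 5 RPKM, and the medians were -0.02, 0.15, 0.11 and 0.18. spe-44, a transcription factor that promotes sperm gene expression, had 15.3 RPKM in WT, 8.82 in set-32, 13.1 in met-2 set-25, 13.9 in triple mutants and 15.3 in hrde-1, a ratio of 0.576 (0.340 to 0.952) in set-32. elt-1, a GATA factor that binds msp promoters, had 5.30, 6.27, 5.47, 5.85 and 9.10 RPKM. set-17, a histone methyltransferase that promotes sperm gene expression, had 46.3, 32.7, 42.99, 41.9 and 63.01 RPKM, with ratios of 0.706 (0.503 to 0.984) in set-32 and 1.36 (1.01 to 1.83) in hrde-1. For these 3 regulators set-32 was thus not the library with the highest level.

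The sex determination genes of the germline were similar in this respect. fem-3, which promotes the male fate, had 54.6, 36.7, 35.2, 33.4 and 62.2 RPKM, with a ratio of 0.672 (0.516 to 0.873) in set-32, and tra-2, which opposes it, had 16.1, 11.3, 14.9, 13.9 and 19.2 RPKM (0.705, 0.551 to 0.899). gld-1 and fog-2, which act together to repress tra-2, had 347.8 and 32.8 RPKM in WT and 270.8 and 26.6 RPKM in set-32. Their ratios were 0.779 (0.712 to 0.851) and 0.810 (0.562 to 1.16). fem-2, a protein phosphatase of the male pathway, was the 1 regulator with an interval above 1 in set-32, from 84.8 to 105.8 RPKM (1.25, 1.06 to 1.47). The intervals of spe-44, set-17, fem-3, tra-2 and gld-1 were below 1. The shares of all models with such intervals were not worked out.

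The remaining regulators were within counting error of WT in set-32. fem-1 had 41.6 RPKM in WT and 37.4 in set-32, tra-1 had 11.8 and 14.3, fbf-1 had 9.87 and 13.2, fbf-2 had 11.4 and 12.8 and cpb-1 had 21.3 and 18.4. The genes closest to the onset of spermatogenesis were low in all libraries. fog-1 had 8.21, 8.18, 10.1, 8.58 and 12.5 RPKM, fog-3 had 0 RPKM in WT and 1.85 to 3.23 in the mutants, and her-1 had 0.78 to 2.10 RPKM. alg-3 and alg-4, Argonautes of spermatogenesis, had 3.53 and 3.12 RPKM in WT, 3.43 and 3.71 in set-32 and 2.45 and 2.09 in hrde-1.

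Genes of the cells that receive the MSP signal did not share the increase in set-32. The list covers 16 genes with 35 models, many of them isoforms of unc-43 and kin-1, and had medians of -0.03, 0.13, 0.16 and -0.02, with none past 2-fold. Those medians rest largely on the low isoforms. Over the 11 genes that averaged 10 RPKM or more the median in set-32 was -0.26, and 10 of the 11 were below WT. Of all models averaging 1 RPKM or more, 48.3% were above WT in set-32. The interval of 6 of the 11 was below 1, but the share of all models with such an interval was not worked out. kin-2 was the one above WT in set-32. In triple mutants all 11 were below WT (median -0.16), 5 of them with an interval below 1, while 49.2% of all models were above WT. In met-2 set-25, 7 of the 11 were above WT (median 0.13), against 57.2% of all models. In hrde-1, 8 were above and 3 below (median 0.12), against 50.2% of all models below. vab-1, an Eph receptor that binds MSP, had 30.8 RPKM in WT, 20.9 in set-32, 35.9 in met-2 set-25 and 29.9 in triple mutants, and its ratio in hrde-1 was 0.943 (0.774 to 1.15). mpk-1, the MAP kinase activated in maturing oocytes, had 90.2, 62.8, 81.6, 60.2 and 98.0 RPKM, and lin-41, which holds oocytes before maturation, had 93.5, 67.0, 88.3, 69.3 and 117.2 RPKM. These 3 had ratios of 0.680 (0.554 to 0.834), 0.697 (0.567 to 0.853) and 0.717 (0.640 to 0.802) in set-32, while the ZK909.2l model of kin-1, the protein kinase A catalytic subunit, had 1.56 (0.739 to 3.37).

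**Figure D5:**
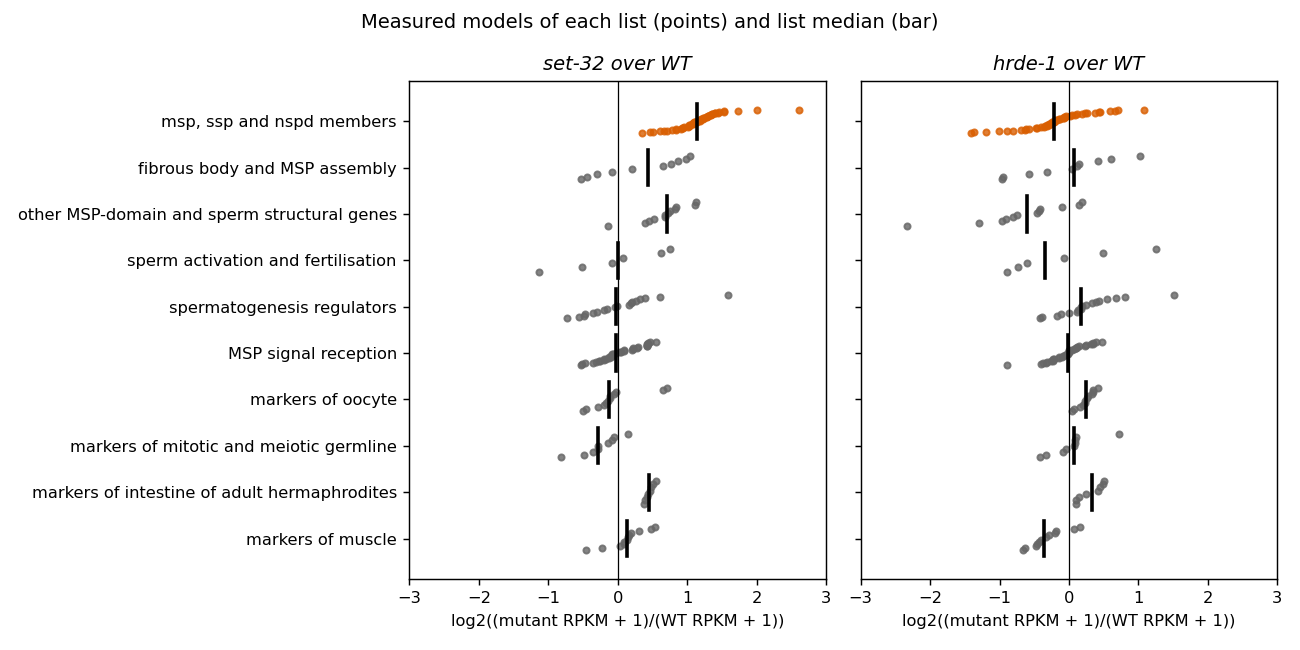
log2((mutant RPKM + 1)/(WT RPKM + 1)) of the measured models of each list (points) and the list median (bar) in set-32 and hrde-1. In set-32 the family members have a median of 1.14 and the other structural sperm genes one of 0.71, while the spermatogenesis regulators centre on -0.02.

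Markers of other cells moved with the families in part. The oocyte markers were at a median of -0.13 in set-32, where 10 of 12 lay below 0, 0.05 in met-2 set-25, -0.19 in triple mutants and 0.24 in hrde-1 with 12 of 12 above 0. Over all measured models 48.3% were above WT in set-32 and 50.2% below it in hrde-1. The 2 oocyte markers above 0 in set-32 were perm-4, with a ratio of 1.64 (1.52 to 1.76), and perm-2, with 1.58 (1.45 to 1.71). The summed level of the oocyte markers ran from 4989 RPKM in WT to 5844 in hrde-1, with 5111 in set-32, and none was at 0. For markers of the mitotic and meiotic germline the median in set-32 was -0.28 with 8 of 9 below 0, and 0.03, -0.01 and 0.08 in the others, and their summed level ran from 952.4 to 1038 RPKM. Yolk protein genes (vit-1 to vit-6), made in the adult intestine, had medians of 0.45, -0.13, 0.29 and 0.33, with sums from 9202 to 13649 RPKM, the highest in set-32. Muscle markers had 0.14, -0.09, 0.14 and -0.36, with sums from 3677 RPKM in hrde-1 to 5290 in set-32. No marker of these 4 lists passed 2-fold. Over all models 2.68% to 4.19% were 2-fold higher and 1.60% to 3.55% lower across the 4 mutants. Their part in the levels of the sperm families was not tested.

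Males also make MSP, and their markers other than klp-6 were at or near 0 in every library. The 12 marker models of male soma and seminal fluid summed to 5.60 RPKM in WT, 9.88 in set-32, 5.90 in met-2 set-25, 8.04 in triple mutants and 2.93 in hrde-1, and 6 to 10 of them were at 0 in each library. The 1 measured model was klp-6, a kinesin of ciliated sensory neurons, at 3.88, 8.25, 4.48, 5.70 and 2.52 RPKM, with a ratio of 2.13 (1.31 to 3.54) in set-32. Without it, a step chosen after the values were seen, the other 11 summed to 1.72, 1.63, 1.42, 2.34 and 0.41 RPKM. Of these 11, lov-1, pkd-2, cwp-1, cwp-2, cwp-3, cwp-5 and mab-23 were at 0 in both WT and set-32. cwp-4 and dmd-3 were at 0 in WT and at 0.67 and 0.51 RPKM in set-32, while try-5 was at 1.25 and 0.45 RPKM and mab-3 at 0.47 and 0. The part of male tissue in the levels of the sperm families was not tested.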

How the data were processed

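mRNA-seq of 5 genotypes, 1 library each, was used. Per the labels and the study's methods, single-end reads of 50 nt were mapped by the authors to the WS190 genome using Bowtie 0.12.7, only perfect matches were retained, and a read that matched at several places gave each an equal share. The authors deposited RPKM with 2 decimals for 20911 models. The counting strand is not given in the sources used here.

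Sequence names linked the models to WBcel235 (Ensembl release 115, RefSeq names), which gave 20315 models (97.1%) a symbol, position and coding length. Coordinates and lengths are those of WBcel235 and not of the authors' build. T28H11.6 is called ssp-11 after RefSeq. Library depth was estimated from the steps between low values, of which 40.8% to 47.3% were whole reads within 0.1 (20% by chance). Read numbers are therefore approximate, and intervals may be too narrow. The reads implied 1.84 to 2.92 M per library. At 384 bases, 5 RPKM stood for 3.54 to 5.60 reads.

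Families were summed per library. Ratios carry 95% Clopper-Pearson intervals, and sums carry exact Poisson intervals. The size rule was 2-fold with a pseudocount of 1 RPKM and at least 5 RPKM in the higher library, with no test because each genotype had 1 library. List medians used models averaging 1 RPKM or more. Python 3.11.15, numpy 2.4.6, pandas 2.3.3, scipy 1.17.1 and matplotlib 3.10.9 were used, and the procedure was tested on simulated data.

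Single members named are the 5 with the highest mean in each family and those past the size rule with an interval that excludes 1. All spermatogenesis regulators are named, and from other lists up to 4 measured models with the log2 ratio in set-32 furthest from 0. Names outside this rule were added after their values were seen. The members and lists were chosen with earlier results of these data known. The names spe-7, trp-3, peel-1 and plg-1 were not matched. Alternatives were other pseudocounts (0.1 and 5), other minimum levels, rescaling to a median ratio of 1, a reference made of the other 4 libraries' median, and identical or repeated models counted once.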

Additional observations from a re-analysis of the deposited data

How the results depend on the processing

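No paired analysis was possible because each genotype had 1 library, and for the same reason no library could be left out within a genotype. The setting that mattered most was the reference. Against the median of the other 4 libraries, the msp ratio was 2.17 in set-32, 1.23 in met-2 set-25, 1.00 in triple mutants and 0.714 in hrde-1, and the ssp ratio in hrde-1 was 0.725. The nspd to msp proportion was 1.16 in set-32, which reverses it, 0.862 in double mutants, 0.991 in triple mutants and 0.805 in hrde-1, and the nspd to ssp proportion was 1.22, 0.809 and 0.997 in the first 3. The median over members was 0.23 in double mutants, -0.042 in triple mutants, which reverses it, and -0.54 in hrde-1. Members at least 2-fold lower in hrde-1 numbered 7, and those higher numbered 0 in double mutants, triple mutants and hrde-1. The sperm class outside the families had -0.59 in hrde-1 and the yolk genes 0.36 in set-32 and -0.37 in double mutants.

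Other settings moved small counts and low genes. With a minimum of 20 RPKM, 0 members were 2-fold higher in double mutants, triple mutants or hrde-1. With a pseudocount of 5 the count was 0 in triple mutants and hrde-1, and with one of 0.1 it was 2 in triple mutants. The sperm class outside the families had medians of 0.52, 0.21 and -0.56 in set-32, double mutants and hrde-1 with a pseudocount of 0.1, and of 0.20, 0.057 and -0.20 with one of 5. With no minimum it had 0.31 in set-32 and -0.31 in hrde-1, and with a mean of at least 10 RPKM 0.72, 0.047, 0.0063 and -0.33 in the 4 mutants. At that minimum the MSP signal reception list had -0.26 in set-32, -0.16 in triple mutants and 0.12 in hrde-1. Rescaling put the yolk genes at -0.19 in double mutants. The cause of these shifts was not tested. Of 66 values for family sums 61 stayed, of 12 for proportions 5, of 56 member counts 46 and of 308 list medians 286. Those totals for family sums and member counts include settings that could not move them. Counting identical or repeated models once changed nothing there, because each gene had 1 model and members with reads had values of their own. The 5 family sums that moved all did so under the other reference. Depth limits single members most, since genes of these lengths had few reads.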
